A study of Mus musculus with 10 samples.

Results

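The BAF (SWI/SNF) complexes are nucleosome remodellers, and 10 genes that encode their subunits were examined here: Arid1a, Arid1b, Arid2, Smarca4, Smarca2, Smarcc1, Smarcc2, Smarcd1, Pbrm1 and Bicra. The rule lists the genes by name and uses no measured value, and all 10 were found among 21887 protein-coding genes. Their peaks were those with a midpoint inside the gene's RefSeq span on mm10. This gave 48 of the 50124 peaks in the study's 3 deposited lists: 17 of 12368 in the Mettl3 wild-type m6A list, 13 of 6764 in the Mettl3 knockout m6A list and 18 of 30992 in the YTHDC1 RIP list.

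The study used male mouse embryonic stem cells from 129 mice, grown without feeder cells in medium with serum and LIF. YTHDC1 binds N6-methyladenosine (m6A) in the nucleus, and it was captured through a Halo tag in Halo-Ythdc1 knockin cells (1 RNA immunoprecipitation, RIP, and 1 input). The m6A samples came from cells labelled Mettl3-WT and Mettl3-KO, with 2 precipitates and 2 inputs each. METTL3 catalyses the deposition of most m6A on messenger RNA. RIP samples are labelled as total RNA and m6A samples as polyA RNA. The cell type label of the Mettl3-KO samples also reads WT, and their genotype was taken from their titles. The labels do not say whether samples of a group were separate cultures or clones. The lists hold positions with no height, read count, strand or value per sample, so depth is unknown and nothing below can be set against a spread between replicates. No test was run, and the 95% intervals are exact Clopper-Pearson intervals that cover the counting of peaks or genes only. The labels of both wild-type precipitates name the wild-type list, and so does that of 1 of the 2 knockout precipitates, so how samples were divided between the m6A lists is not settled. As a check of the cell type, 7 of 8 pluripotency genes and 1 of 6 genes of other lineages held a peak in at least 1 list, although peaks are not levels of RNA. Of all protein-coding genes 48.3% held no peak in any list.

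BAF complexes use ATP to slide or evict nucleosomes and so open enhancers and promoters. An ATPase (Smarca4 or Smarca2) works with core subunits (Smarcc1, Smarcc2, Smarcd1), not all of which occur in every type of complex. Further subunits set the type: Arid1a or Arid1b in canonical BAF, Arid2 and Pbrm1 in PBAF, and Bicra in non-canonical BAF. In embryonic stem cells the complex is built around the products of Smarca4 and Smarcc1 and is needed for self-renewal. On messenger RNA, m6A is typically dense in the last exon and in long internal exons.

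Peaks reached the promoter windows of 3 members, and the 2 with bases before the start under the peak are shown. A promoter window here runs from 250 bases before to 50 bases after a RefSeq start (GRCm38.p6, the assembly of mm10). Of the 9 windows of 8 members, 1 lay under a knockout m6A peak (Pbrm1), 2 under a RIP peak (Smarcc1 and Smarcd1) and 0 under a wild-type m6A peak. Among all 32851 windows the shares were 8.23%, 5.47% and 2.46%. The knockout peak covered the whole Pbrm1 window. The RIP peak of Smarcd1 covered the last 31 bases before the start, and that of Smarcc1 began 16 bases after it. The 250 bases before each start are printed 5′ to 3′ on the gene's own strand (plus for both). In Pbrm1 (chr14:31018888-31019137) the capitals mark GGAC, the core of the usual m6A consensus, which occurred 2 times on the printed strand and 0 times as its reverse complement GTCC. Both copies lie before the annotated start of Pbrm1 and inside the span of Gnl3, which is read from the other strand, so GGAC on the printed strand is in the annotated RNA of neither gene. In Smarcd1 (chr15:99702037-99702286) the capitals mark the bases under the RIP peak. The 250 bases held GGAC 0 times and GTCC 1 time. That GTCC lay outside the capitals, and inside the span of the long non-coding gene Gm34939, which is read from the other strand.
Pbrm1 upstream: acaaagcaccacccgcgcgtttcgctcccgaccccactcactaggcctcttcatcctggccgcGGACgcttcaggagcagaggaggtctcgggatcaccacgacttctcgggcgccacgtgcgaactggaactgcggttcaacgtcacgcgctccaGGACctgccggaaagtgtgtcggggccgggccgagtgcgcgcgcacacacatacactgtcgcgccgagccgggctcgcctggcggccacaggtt
Smarcd1 upstream: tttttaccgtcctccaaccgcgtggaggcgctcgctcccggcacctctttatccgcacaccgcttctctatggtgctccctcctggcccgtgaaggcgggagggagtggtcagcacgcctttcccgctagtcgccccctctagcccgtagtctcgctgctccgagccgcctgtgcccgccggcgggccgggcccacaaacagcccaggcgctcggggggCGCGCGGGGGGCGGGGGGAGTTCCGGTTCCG
Both stretches were GC-rich (67.2% for Pbrm1 and 71.2% for Smarcd1, against a median of 52.4% over all windows). GGAC on either strand was found in 82.3% of all such 250-base stretches, so its presence is common.

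Wild-type m6A peaks lay in the 5 genes of complex-specific subunits and in none of the 5 genes of ATPases and core subunits. The first group held 17 wild-type, 4 knockout and 5 RIP peaks over 729.0 kb of gene span, and the second 0, 9 and 13 over 413.0 kb. Per 100 kb of span this was 2.33, 0.549 and 0.686 peaks in the first group and 0, 2.18 and 3.15 in the second. Protein-coding genes of the span range of all 10 members (11.7 to 353.0 kb) carried 1.27, 0.66 and 2.42. That background was not matched to either group, whose spans ran from 77.5 to 353.0 kb and from 11.7 to 173.0 kb. The grouping follows the subunits' roles, but with 5 genes a side and the counts known when it was made it has no test. Of the core subunits outside the list, Smarcb1 held a wild-type peak of 150 bp and Smarce1 held 2 of up to 250 bp, while Smarcd2 and Smarcd3 held 0. Of the complex-specific subunits outside the list, Bicral held 3 wild-type peaks and Phf10 held 1, and Dpf1, Dpf2, Dpf3, Brd7 and Brd9 held 0. The remaining accessory subunits were in neither group. Among them Bcl7a held 2 wild-type peaks (widest 1750 bp), Ss18 held 2 (600 bp), Bcl7c held 1 (850 bp) and Bcl7b held 1 (550 bp). Actl6a, Actl6b and Ss18l1 held 0. The division seen in the 10 genes was therefore not seen in the other subunits, where both groups held genes with and without wild-type peaks. These subunits were named after their values were seen.

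**Figure D1:**
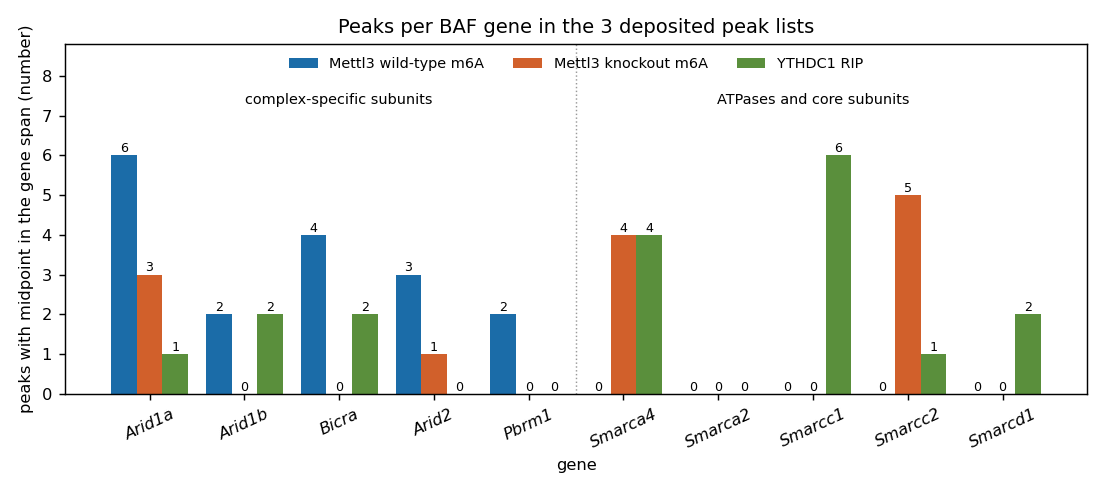
Number of peaks with their midpoint in each gene's span (vertical axis) for the 10 BAF genes, with 1 bar per deposited list and genes ordered by subunit role. Blue bars (wild-type m6A, 2 to 6 peaks) appear only left of the dotted line, and Smarca2 has 0 in every list.

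Counted by gene, 5 of 10 members had a wild-type m6A peak (50%, 18.7 to 81.3%), 4 a knockout m6A peak (40%, 12.2 to 73.8%) and 7 a RIP peak (70%, 34.8 to 93.3%). Over all protein-coding genes these shares were 30.3%, 18.2% and 42.2%, and over the 12681 of the members' span range 38.5%, 21.9% and 54.4%. The 6 background shares lie inside the members' intervals. Wild-type peaks without a knockout peak were found in Arid1b, Pbrm1 and Bicra, a pattern of 18.8% of protein-coding genes (23.9% in the span range). For Pbrm1 this rests on the midpoint rule. If any overlap with the span counted, it would have peaks in both m6A lists, and 5 members a knockout peak. Arid1a and Arid2 had peaks in both m6A lists (11.5% and 14.6% of genes). Smarca4 and Smarcc2 had knockout peaks without a wild-type peak (6.66% and 7.24%). Smarcc1 and Smarcd1 had RIP peaks alone (14.8% and 18.2%). Smarca2 had no peak at all, as did 48.3% of protein-coding genes and 36.1% in the span range. A gene without a peak may be unexpressed, unbound or below detection, and the lists do not separate these.

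Arid1a encodes the DNA-binding subunit of canonical BAF and carried the most wild-type m6A peaks of the 10. The gene spans 77.8 kb (chromosome 4, 133679008 to 133756769, minus strand). Its 6 wild-type peaks fell in 3 pairs. The pair nearest the 3′ end held the widest peak of all members, 2000 bp (133680101 to 133682100), with its midpoint 2092.5 bp from the gene's end, and a 700 bp peak (133684951 to 133685650). Of all wild-type peaks 99.4% are narrower than the first. A middle pair measured 550 bp (133720501 to 133721050) and 150 bp (133722751 to 133722900). The pair nearest the 5′ end, 2 peaks of 300 bp separated by 50 bp, lay from 133752901 to 133753550, about 4.33 and 4.78% into the gene. Genes with 6 or more wild-type peaks make up 0.812% of protein-coding genes in the span range, a threshold set at the count of Arid1a.

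Knockout peaks in Arid1a sat beside or on the wild-type ones. The 600 bp knockout peak (133720451 to 133721050) covered the whole 550 bp middle wild-type peak. Another of 200 bp (133719551 to 133719750) lay 750 bp from it, and the third, also 200 bp (133686301 to 133686500), lay 650 bp from the 700 bp wild-type peak. No knockout peak came closer than 4200 bp to the 2000 bp wild-type peak or 31850 bp to the 5′ pair. The single RIP peak (143 bp, 133710851 to 133710993) was 9507 bp from the nearest wild-type peak.

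Arid1b, the alternative to Arid1a in canonical BAF, is the longest member at 353.0 kb (chromosome 17, 4994297 to 5347656, plus strand). Its 2 wild-type peaks of 650 bp (5336501 to 5337150) and 1500 bp (5341751 to 5343250) lay 96.9 and 98.5% along the gene, and it had no knockout peak. The wild-type peaks covered 0.608% of the span, against 5.14% in Arid1a. Both paralogs thus had a wide wild-type peak near the 3′ end of the gene, while the middle and 5′ pairs were seen in Arid1a alone. The 2 RIP peaks of Arid1b measured 21 bp and 200 bp and lay 49595 bp or more from any wild-type peak.

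Bicra, which encodes a defining subunit of non-canonical BAF, held the one place where an m6A peak and a RIP peak met. Its span is 77.5 kb (chromosome 7, 15970671 to 16048146), and its strand was not in the table used. The 1000 bp wild-type peak (15971651 to 15972650) contained the whole 200 bp RIP peak (15971914 to 15972113), 1479.5 bp from the lower end of the span. A 300 bp wild-type peak (15971301 to 15971600) adjoined it at a gap of 50 bp, and 2 more, of 850 and 500 bp and 100 bp apart, lay deeper in the span (15988001 to 15989450). There was no knockout peak. A second RIP peak (145 bp) stood at 90% of the span from the lower end. Just past the higher end, outside the rule, a 400 bp wild-type peak (16048551 to 16048950) and a 252 bp RIP peak (16048429 to 16048680) overlapped, and their midpoints lay in no other gene of the table.

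Arid2, the ARID subunit of PBAF, spans 118.0 kb of chromosome 15 (96287522 to 96405463, strand not in the table). It had 3 wild-type peaks. Those of 1150 bp (96369851 to 96371000) and 1550 bp (96371251 to 96372800) were 250 bp apart, 70.3 and 71.6% along the span from the lower end. The 550 bp knockout peak (96370401 to 96370950) lay wholly inside the first and 300 bp from the second. The remaining wild-type peak was 200 bp wide (96402001 to 96402200), 3362.5 bp from the higher end. No RIP peak fell in the gene.

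Pbrm1, which encodes the multi-bromodomain subunit of PBAF, spans chromosome 14, 31019138 to 31121592 (plus strand). It had wild-type peaks of 550 bp at 47.3% (31067351 to 31067900) and of 150 bp at 97.4% (31118901 to 31119050). The second also lay in the span of Smim4 on the minus strand and cannot be assigned to 1 of the 2 genes. The 650 bp knockout peak over its start (31018701 to 31019350) ran from 437 bp before the start to 212 bp after it. Its midpoint lay 112.5 bp outside the span, so the rule counts 0 knockout peaks for Pbrm1. Gnl3, a nucleolar GTPase gene on the minus strand, starts 7 bp before Pbrm1, and without strand the peak cannot be assigned to either. No RIP peak fell in Pbrm1.

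Smarca4 and Smarca2, the alternative ATPases, both lacked a wild-type peak, and only Smarca4 had peaks of the other lists. Smarca4 (chromosome 9, 21616106 to 21704230, plus strand) had 4 knockout peaks within the first 30.1% of the gene. They measured 200 bp (21635701 to 21635900), 200 bp (21636151 to 21636350), 400 bp (21637201 to 21637600) and 450 bp (21642401 to 21642850). Wild-type peaks lay 40800 bp or more from each of them. Its 4 RIP peaks (89 to 188 bp wide) lay on both sides of this group, 3 of them 8701 to 12680.5 bp from the 5′ end and the last at 76.9%. None came closer than 6820 bp to a knockout peak. Smarca2 spans 173.0 kb (chromosome 19, 26605073 to 26778321) and had no peak inside it or within 10 kb.

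The scaffold paralogs Smarcc1 and Smarcc2 differed in which lists held their peaks. Smarcc1 (chromosome 9, 110132024 to 110240178, plus strand) had no m6A peak and 6 RIP peaks, the most of any member. The first was at the start (224 bp, 110132040 to 110132263) and the other 5, from 83 to 200 bp wide, were spread over the first 53.6% of the gene, 2 of them only 3 bp apart (110189835 to 110190108). In the span range 0.844% of genes had 6 or more RIP peaks and no m6A peak. Smarcc2 (chromosome 10, 128459182 to 128490591, plus strand) had 5 knockout peaks, 1 RIP peak (141 bp, 9.36% along) and no wild-type peak. Its knockout peaks were 350 bp at 48.2% (128474151 to 128474500) and a run of 4 peaks of 150 or 200 bp between 128483251 and 128484550. Genes with 4 or more knockout and no wild-type peaks made up 0.402% of the span range. Both thresholds were set at members' counts after these were seen.

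Smarcd1, the smallest member at 11.7 kb (chromosome 15, 99702287 to 99713995, plus strand), links the core to transcription factors. It had no m6A peak and 2 RIP peaks, 1 of 200 bp over the start (99702256 to 99702455) and 1 of 108 bp at 69.1%. The first also lay in the span of the long non-coding gene Gm34939 on the other strand. Its paralogs Smarcd2 and Smarcd3, named after their values were seen, likewise had no m6A peak and held 2 and 1 RIP peaks.

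**Figure D2:**
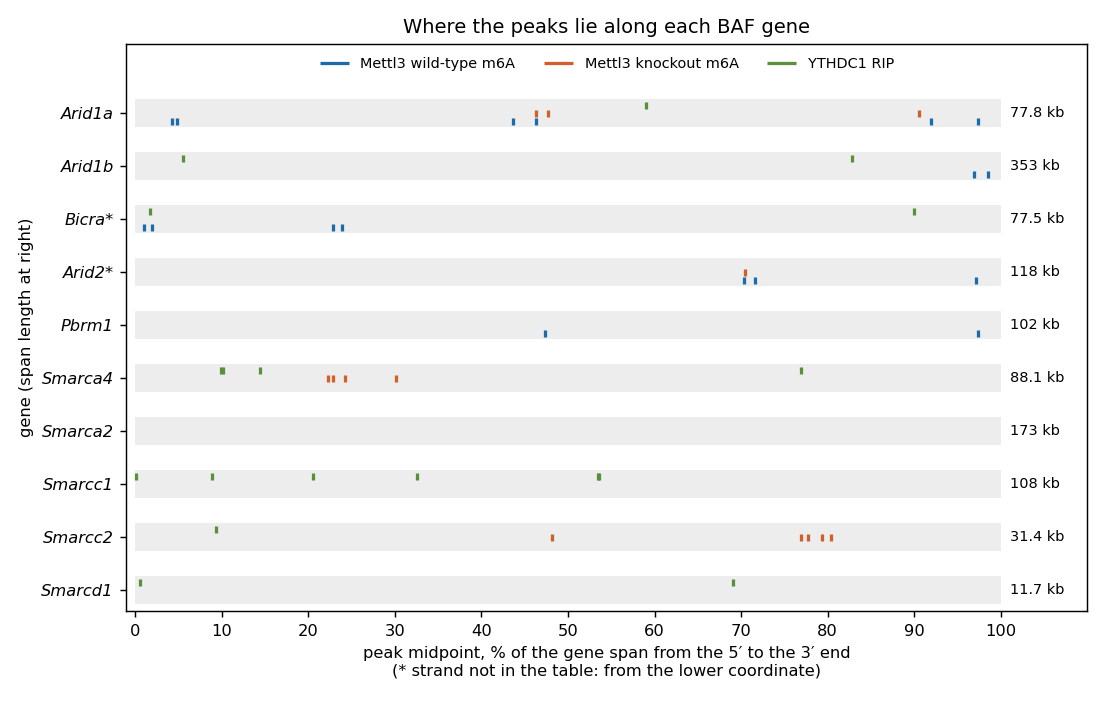
Midpoint of each peak as a percentage of the gene span (horizontal axis), drawn from the 5′ to the 3′ end for the 8 genes with a known strand and from the lower coordinate for Bicra and Arid2. Within a grey bar the lowest marks are wild-type m6A, the middle ones knockout m6A and the top ones RIP peaks, and peaks of different lists overlap only in Arid1a, Arid2 and Bicra.

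Peak positions were compared between the wild-type and knockout m6A lists, although how samples were divided between them is not settled. Of the 17 wild-type peaks 2 shared 1 bp or more with a knockout peak (11.8%, 1.46 to 36.4%), in Arid1a and Arid2, and of the 13 knockout peaks the same 2 places gave 15.4% (1.92 to 45.4%). All wild-type peaks in protein-coding genes overlapped a knockout peak in 11.7% of cases, and all knockout peaks overlapped a wild-type peak in 21.3%. Both backgrounds lie inside the members' intervals. In both places the shared stretch was 550 bp, which makes up all of the narrower peak. The remaining 11 knockout peaks lay 650 bp or more from wild-type peaks, 9 of them in genes without any.

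RIP and m6A peaks were compared in the same way. A single one of 17 wild-type peaks overlapped a RIP peak (5.88%, 0.149 to 28.7%), the Bicra peak above, against 13.1% of all wild-type peaks in protein-coding genes. None of the 13 knockout peaks did (an interval up to 24.7%), against 21.6%. From the other side 1 of 18 RIP peaks overlapped a wild-type m6A peak (5.56%, 0.141 to 27.3%), against 7.32%. All 3 backgrounds lie within the members' intervals. The median distance from a member wild-type peak to the nearest RIP peak was 16837 bp, and from a member knockout peak 8557 bp, with a smallest value of 6820 bp. The labels' RIP protocol names no fragmentation of the RNA, so a RIP peak need not mark the bound base.

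Member peaks differed in width by list. Wild-type m6A peaks had a median of 550 bp (range 150 to 2000 bp) against 400 bp for the whole list, and 11 of 17 were wider than the list's median (64.7%, 38.3 to 85.8%, against 47.9% of wild-type peaks in protein-coding genes). Peaks of 1000 bp or more numbered 5 of 17 (29.4%, 10.3 to 56.0%), in Arid1a, Arid1b, Arid2 and Bicra, against 9.85%. The Bicra peak was exactly 1000 bp wide, and 2 of the 5 were the Arid2 peaks 250 bp apart. Knockout peaks had a median of 200 bp (150 to 600 bp) against 250 bp in the list, with 5 of 13 above the list's median (38.5%, 13.9 to 68.4%, against 31.0%). The 2 widest of these were the 2 that overlap a wild-type peak. RIP peaks had a median of 166.5 bp (21 to 224 bp) against 203 bp, and 1 of 18 exceeded the list's median (5.56%, 0.141 to 27.3%, against 44.0%). Just under that median, 24.6% of the RIP list and 4 of the 18 member peaks were exactly 200 bp wide. The very wide RIP peaks of the list, up to 11710 bp, were not among the members'.

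**Figure D3:**
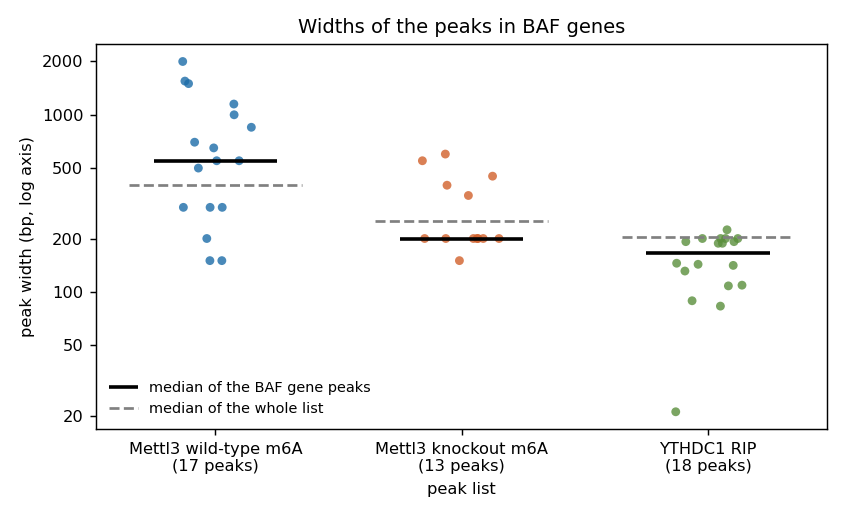
Width of every peak in the 10 genes (vertical axis, log scale, in bp) for each list, with the median of the member peaks (black) and of the whole list (dashed grey). The wild-type median of 550 bp lies above its list's 400 bp, and the RIP median of 166.5 bp below its list's 203 bp.

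Along the genes with a known strand, wild-type peaks of the members gathered near the 3′ end, as they did in all genes. The members' 10 such peaks came from 3 genes (6 in Arid1a, 2 in Arid1b and 2 in Pbrm1). The Pbrm1 peak near the 3′ end also lay in the span of Smim4. Of the 10 peaks 5 lay in the last 10% of the span (50%, 18.7 to 81.3%) and 2, an Arid1a pair, in the first (20%, 2.52 to 55.6%). Over protein-coding genes the wild-type shares were 43.3% and 8.66%. Over all protein-coding genes knockout peaks had the opposite profile, with 44.3% in the first 10% of the span and 9.36% in the last. The members' 12 knockout peaks in stranded genes did not follow it: 0 lay in the first 10% (an interval up to 26.5%) and 1 in the last (8.33%, 0.211 to 38.5%). They come from 3 genes, and 9 of them stand in Smarca4 and Smarcc2. The knockout peak over the start of Pbrm1 falls outside this count by its midpoint. Of 16 RIP peaks 6 lay in the first 10% (37.5%, 15.2 to 64.6%) and 0 in the last (an interval up to 20.6%), against 19.5% and 14.0%. Exons were not given, so a position in a terminal exon, coding exon or intron was not determined.

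**Figure D4:**
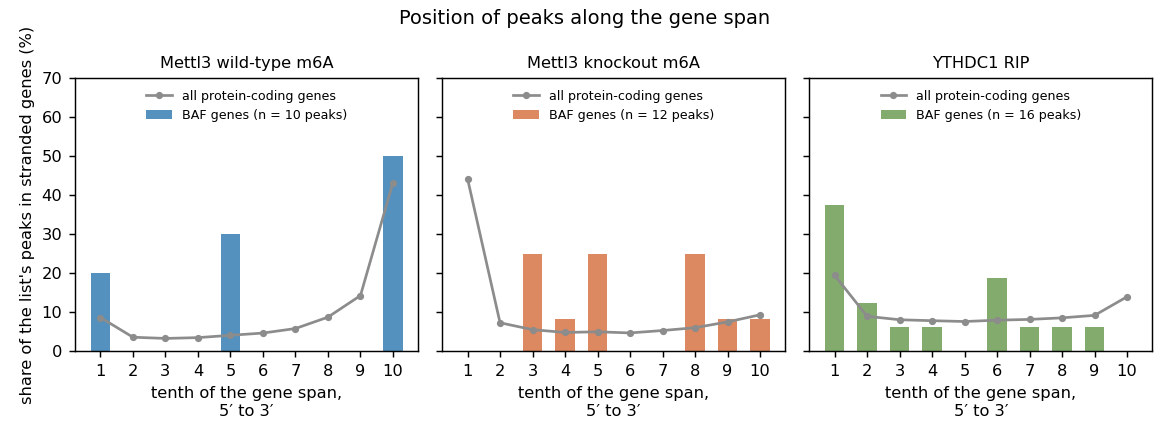
Share of peaks (vertical axis, %) in each 10% bin of the gene span from 5′ to 3′, for members with a known strand (bars) and all protein-coding genes with one (grey line), by list. Both wild-type profiles are highest in the last bin (50% and 43.3%), whereas the first bin holds 44.3% of all knockout peaks and none of the members'.

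The rest of the BAF complex and 3 other remodeller families were listed for comparison. Of 18 other BAF subunits 8 had a wild-type, 5 a knockout and 12 a RIP peak. The widest wild-type peaks among them were in Bcl7a (1750 bp, with 0 knockout peaks) and Bcl7c (850 bp, 0), small accessory subunits, and in Bicral, the paralog of Bicra (1100 bp, with 3 wild-type, 1 knockout and 3 RIP peaks). The widest RIP peaks were in the bromodomain genes Brd9 (347 bp) and Brd7 (339 bp), neither of which had a wild-type peak. With the members added, 13 of 28 BAF genes had a wild-type, 9 a knockout and 19 a RIP peak.

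ISWI genes, which encode nucleosome-spacing remodellers, had a peak in 9, 7 and 10 of 11 cases. Bptf carried 9 wild-type peaks (widest 850 bp), Cecr2 carried 5 (1500 bp) with no knockout peak, and Rsf1 carried 2 (650 bp). The widest RIP peaks were one of 6288 bp in Smarca1 and one of 417 bp in Cecr2. For CHD and NuRD genes the counts were 12, 11 and 20 of 21, and wild-type peaks were widest in Chd6 (1200 bp), Chd9 (1100 bp) and Chd2 (1000 bp, a width that Chd7 and Chd8 share). Their widest RIP peaks were in Chd9 (347 bp) and in the deacetylase gene Hdac1 (339 bp). Genes of the INO80, SRCAP and TIP60 complexes, which exchange histone variants, counted 11, 8 and 15 of 19, led by Srcap (2050 bp), Ino80d (1550 bp) and Ep400 (950 bp). The widest RIP peaks there were in Tfpt (374 bp) and Ruvbl2 (339 bp). The ISWI and CHD ATPase genes Smarca5 and Chd4, named after their values were seen, had 0 and 1 wild-type peaks. Among the other CHD genes, Chd6 held 7, Chd8 held 6, Chd2, Chd7 and Chd9 held 3 each, and Chd1 held 1. Chd3, Chd5 and the ISWI gene Smarca1 held 0, while Srcap and Ep400 held 4 each and Ino80 held 2. In every one of these 5 lists RIP peaks were found in more genes than wild-type m6A peaks, and wild-type in more than knockout, the same order as in all protein-coding genes.

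**Figure D5:**
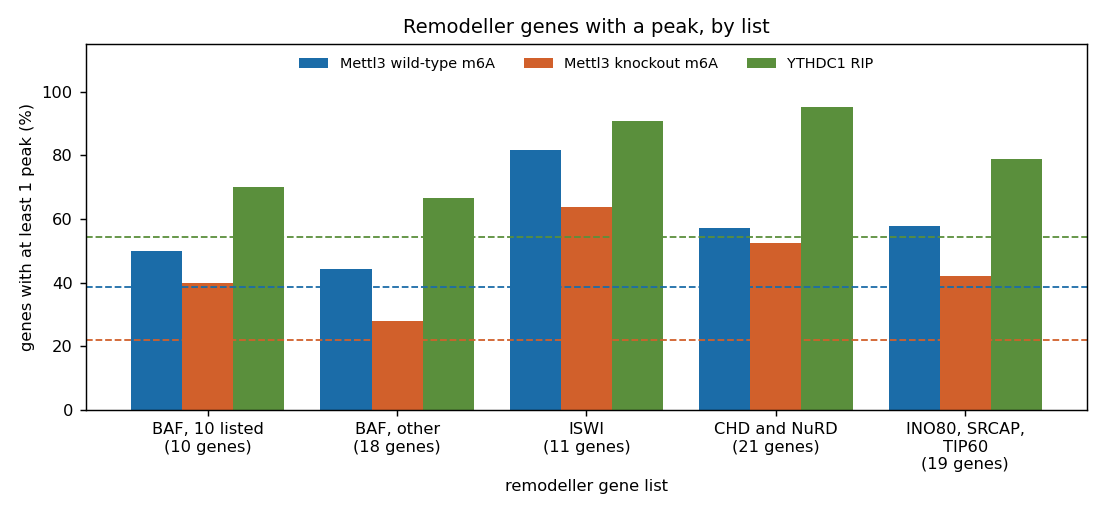
Share of genes with at least 1 peak (vertical axis, %) in the 10 BAF genes and 4 other remodeller lists, by peak list. Dashed lines give the shares over protein-coding genes of the members' span range (38.5, 21.9 and 54.4%). Each bar of the 10 BAF genes (50%, 40% and 70%) lies above its line, as does each bar of the 4 other lists. The lines are not matched to the spans of those 4 lists.

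Measured by the 3 peak counts, 2 protein-coding genes had exactly the pattern of Arid1a (6 wild-type, 3 knockout and 1 RIP peak). These were Chd8, a CHD remodeller gene of 59.9 kb, and the zinc finger gene Zfp809 of 28.5 kb. At a summed difference of 1 peak 4 genes were tied, and the 3 of them closest to Arid1a in span length were Gm20517 (6, 2 and 1), Rbbp6 (5, 3 and 1) and Usp36 (6, 3 and 0).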

How the data were processed

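Peak positions in bp were read from the 3 lists that the authors deposited. The submitters' processing notes name mm10, STAR 2.7, HISAT2 2.2.0, Trim Galore 0.6.4, SAMtools 1.9 and MACS2 2.1.2. The sources used here give neither their roles, the peak threshold nor any pooling of replicates. All m6A peaks start and end on a 50 bp grid and 0.513% of RIP peaks do, so the lists were not made identically.

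Gene spans came from RefSeq (GRCm38.p6), and strand and promoter sequence from RefSeq promoter windows, which held 8 of the 10 members. A peak counted for every gene whose span held its midpoint. Peaks of 2 lists overlapped when they shared 1 bp. Spans hold introns, and no exons were given. The members, the gene lists and the thresholds were chosen with earlier results of these data known. Genes of the other lists were named by their widest wild-type m6A (3) and RIP peaks (2), and 5 genes by peak counts closest to Arid1a. Scripts used Python 3.11.15, pandas 2.3.3 and scipy 1.17.1. Counting was tested on simulated peaks. Alternatives covered assignment, width, overlap and distance.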

Additional observations from a re-analysis of the deposited data

How the results depend on the processing

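Over 68 values recomputed under other settings, 55 stayed within 1.5 times the main count or 1 SD of the main width and 13 moved. With peaks wider than their list's median alone, the members held 11 wild-type, 5 knockout and 1 RIP peak (in 1 member), the median widths were 450 bp in the knockout and 224 bp in the RIP list, 0 wild-type peaks overlapped a RIP peak and 1 RIP peak lay within 200 bp of a span end. Within that distance lay 2 RIP peaks in the main count, 1 when midpoints in another gene were left out, and 1 within 100 bp. The knockout peak of Pbrm1 made that count 1 in place of 0 when any overlap with the span was enough. That setting also gave 14 knockout peaks in 5 members, Pbrm1 among them. Wild-type peaks at most 500 bp, or, in a setting added after seeing the data, 2000 bp, from a RIP peak numbered 2 in place of 1. Merging peaks at most 250 bp apart, also added later, left 13, 10 and 16 peaks. Settings that ask for a larger share of the narrower peak to overlap moved none of the overlap counts. No paired analysis was possible because the lists carry no value per sample. Depth and peak height are unknown, so a missing peak does not show missing m6A or binding, and 10 genes give wide intervals.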

Other observations

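Within 10 kb outside the spans lay 19 further peaks, 3 wild-type m6A, 6 knockout m6A and 10 RIP, and 16 of them had their midpoint in another coding or long non-coding gene. Past the 3′ end of Smarcc2, the myosin light chain gene Myl6 held 3 knockout peaks (300, 200 and 200 bp, from 128492551 to 128493950 on chromosome 10) and a 453 bp RIP peak, with no wild-type peak within 10 kb of the span. Beside Arid2, the splicing-related gene Scaf11 held a 150 bp wild-type peak (96414401 to 96414550 on chromosome 15) and 2 RIP peaks of 396 and 190 bp. Of the 3 peaks in no other gene, 1 was a 161 bp RIP peak 1247 bp before the start of Smarcc1, and 2 were the overlapping wild-type and RIP peaks past the higher end of Bicra.

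Among the other BAF subunits, Smarce1 had more knockout than wild-type m6A peaks (7 against 2) in a span of 22.0 kb, and Ss18 had the most RIP peaks (7). Both were picked after their values were seen.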
